A study of Homo sapiens with 18 samples.

Results

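ABI3BP, TCIM, KL, GATA3, SCNN1B, TINAGL1, CST6 and NPNT were followed over all arrays of the series. The 8 genes were chosen by their measured levels, as genes that were higher with erlotinib and higher again when Notch1 siRNA was added to erlotinib. They are 8 of the 22465 genes named by single-gene features of the array, and 1 feature names each. All 8 were among the 16336 genes that passed a filter on low values (a level above the array median on 3 or more arrays). Their levels in the comparisons used for the choice are therefore given as a description, without a test.

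The cells were of HCC4006, an established EGFR-mutant line from a human lung adenocarcinoma, transfected with Notch1 siRNA (N1), Notch3 siRNA (N3) or non-targeting control siRNA (NTC). Each siRNA was combined with 0.1 µM erlotinib, an inhibitor of the EGFR tyrosine kinase, or with its vehicle DMSO, for 5 days according to the sample labels. The 6 groups were N1 erlotinib, N3 erlotinib, NTC erlotinib, N1 DMSO, N3 DMSO and NTC DMSO, with 3 arrays each and 18 in all. Transcripts were measured on Affymetrix Human Transcriptome Array 2.0 chips, and every level below is a log2 value from robust multi-array average (RMA). The line is a single cell line, and the labels do not say whether arrays of a group came from separate cultures. The p values thus measure only the spread between these arrays, which may be technical. The N3 erlotinib arrays are numbered 4 to 6 and all others 1 to 3, so any separate handling of those arrays cannot be told apart from the N3 effect in erlotinib. The same holds for the erlotinib effect in N3 cells, that is for every difference of N3 erlotinib against N3 DMSO below.

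NOTCH1 averaged 6.54 ± 0.08 in N1 DMSO cells and 6.84 ± 0.06 in NTC DMSO cells (SD, n = 3 each). In erlotinib it averaged 6.58 ± 0.04 in N1 cells and 6.66 ± 0.01 in NTC cells, with no overlap of arrays and a smaller gap. NOTCH3 averaged 6.40 ± 0.12 in N3 erlotinib cells and 6.97 ± 0.06 in NTC erlotinib cells. Array medians ran from 4.84 to 5.01. All 11 lung epithelial marker genes lay above the noise limit, and the mean of the list ran from 8.52 to 8.81 over the arrays. It was highest on the N1 erlotinib arrays (8.79 to 8.81, against 8.56 to 8.60 on the NTC erlotinib arrays), the group in which the 8 genes were also highest, and its part in their levels was not tested. The mean joins genes that moved apart, since N3 erlotinib minus N3 DMSO was -1.17 for KRT19 and 0.85 for NAPSA. NAPSA was also higher in both comparisons used for the choice, by 1.407 and 0.460. SFTPB (5.64 to 5.94) and SFTPC (5.38 to 5.52, ranges of group means) lay nearest the limit. Of 4 leukocyte markers 1 (CD14) passed the limit, of 4 fibroblast markers 2 and of 4 endothelial markers 3, while PTPRC (2.71 to 2.80), DCN (2.57 to 3.04) and PECAM1 (3.17 to 3.79), given as ranges of group means, lay below it. On the arrays, fewer cells that make a transcript and less transcript per cell cannot be told apart.

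Notch receptors are cut after they bind a ligand on a neighboring cell. The released intracellular domain enters the nucleus and joins the DNA-binding protein RBPJ to activate transcription. In lung epithelium, Notch signaling is known for its part in the choice between secretory and ciliated cell fates. EGFR signals through kinase cascades such as the ERK pathway, and erlotinib blocks its kinase. The 8 genes have different roles in epithelia. ABI3BP, TINAGL1 and NPNT encode proteins secreted into the extracellular matrix, and CST6 encodes a secreted protease inhibitor. SCNN1B encodes an ion channel subunit and KL a membrane co-receptor. GATA3 encodes a transcription factor, and TCIM a small protein known as a positive regulator of β-catenin signaling.

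In the 2 comparisons that chose them, all 8 genes were higher. NTC erlotinib minus NTC DMSO ran from 0.26 (CST6) to 1.04 (ABI3BP) on the log2 scale, and N1 erlotinib minus NTC erlotinib from 0.21 (NPNT) to 1.15 (ABI3BP). The medians of the 8 genes were 0.76 and 0.30, against -0.02 and 0.03 over all genes tested. At an adjusted p under 0.05 in both comparisons (limma, with Benjamini-Hochberg adjustment over all genes tested), 384 genes were higher, which is 2.35% of those tested, and the 8 genes are among them by choice. By the smaller of both differences, ranked over all genes tested and not over the 384 alone, ABI3BP was first at 1.04. The next places were held by SAMD9L, an interferon-inducible gene (1.01), PGBD5, a gene derived from a piggyBac transposase (0.89), IFI6, another interferon-inducible gene (0.81), and CTSS, which encodes cathepsin S (0.73). TCIM held place 19 with 0.52 and KL place 72 with 0.35. TINAGL1, CST6, GATA3, SCNN1B and NPNT held places 130, 141, 144, 162 and 230. The choice had no numeric threshold, and genes with differences as large were left out of it. CCN2 stood at 1.013 and 0.587 in the 2 comparisons, with -0.910 for N3 erlotinib minus NTC erlotinib. NUAK2 stood at 0.887 and 0.330, with -0.700. Of the 384 genes, 51 were also lower in N3 erlotinib than in NTC erlotinib arrays at an adjusted p under 0.05, and these 51 include all 8. The N3 erlotinib levels may therefore have entered the choice too. Tests of N3 erlotinib against N3 DMSO, given below for each gene, are then not independent of it.

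**Figure D1:**
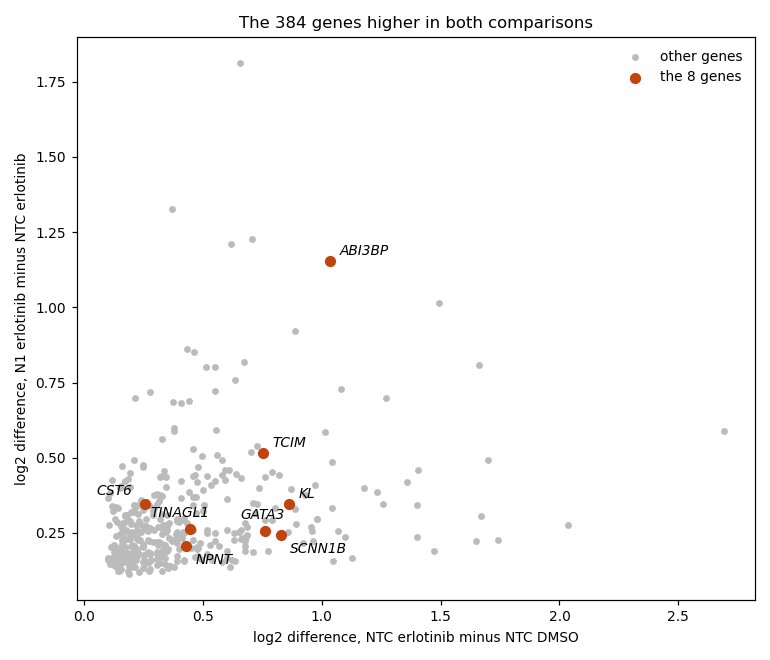
Each point is 1 of the 384 genes that were higher in both comparisons used for the choice, with NTC erlotinib minus NTC DMSO on the horizontal axis and N1 erlotinib minus NTC erlotinib on the vertical axis, both as log2 differences. ABI3BP stands apart from the other 7 labelled genes at 1.04 and 1.15, and NPNT, TINAGL1 and CST6 lie toward the lower left.

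RefSeq promoter windows (GRCh38.p14, 250 bases before and 50 from the annotated start) were used for 6 of the 8 genes, which have 12 windows in all, 6 of them of GATA3 and 2 of TINAGL1. CST6 had no entry and TCIM was left out of the search, so nothing is said of motifs at these genes. The windows of ABI3BP, KL and SCNN1B are shown because KL and SCNN1B had the closest profiles of any pair among the 8 genes, while ABI3BP had the most distant one (profiles are given further on). They lie at chr3:100993372-100993671 on the minus strand for ABI3BP, chr13:33016173-33016472 on the plus strand for KL and chr16:23302052-23302351 on the plus strand for SCNN1B. For KL and SCNN1B the start used lies inside the interval annotated for the gene. Capitals mark matches to the motif cores named in the next paragraph.
ABI3BP: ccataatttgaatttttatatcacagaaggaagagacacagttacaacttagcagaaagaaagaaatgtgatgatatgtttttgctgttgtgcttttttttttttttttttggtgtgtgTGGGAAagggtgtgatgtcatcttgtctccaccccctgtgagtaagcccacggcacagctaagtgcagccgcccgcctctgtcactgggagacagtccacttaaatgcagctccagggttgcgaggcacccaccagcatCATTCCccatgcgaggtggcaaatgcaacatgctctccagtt
KL: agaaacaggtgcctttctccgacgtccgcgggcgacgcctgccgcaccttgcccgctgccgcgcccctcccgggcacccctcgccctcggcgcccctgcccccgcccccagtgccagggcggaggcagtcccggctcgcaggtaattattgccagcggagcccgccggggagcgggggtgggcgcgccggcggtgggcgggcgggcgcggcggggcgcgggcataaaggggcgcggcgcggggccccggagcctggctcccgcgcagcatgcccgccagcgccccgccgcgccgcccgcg
SCNN1B: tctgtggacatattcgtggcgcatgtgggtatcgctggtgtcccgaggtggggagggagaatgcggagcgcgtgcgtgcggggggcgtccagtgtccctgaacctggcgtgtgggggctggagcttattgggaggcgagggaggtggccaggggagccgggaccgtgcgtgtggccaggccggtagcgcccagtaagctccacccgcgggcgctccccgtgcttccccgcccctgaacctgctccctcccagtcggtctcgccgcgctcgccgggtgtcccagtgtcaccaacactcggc

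The searched cores, on both strands, were TGGGAA of RBPJ, CTTTGA of the TCF factors that work with β-catenin, GGAATG of the TEAD factors, and TGANTCA of AP-1. Of all 35116 promoter windows of this length, 24% hold the RBPJ core, 12.9% the TCF core, 14% the TEAD core and 7.71% the AP-1 motif. The ABI3BP window holds 1 RBPJ core, which starts at base 120, and 1 TEAD core, which starts at base 259 and is read on the opposite strand as CATTCC. The KL, SCNN1B and NPNT windows hold none of the 4 cores. Of the 6 GATA3 windows, 4 hold 1 match each, a TEAD core, an RBPJ core, a TCF core and the AP-1 motif, and the other 2 hold none. The first TINAGL1 window holds an RBPJ core at base 18 and a TCF core at base 253, and the second holds 2 RBPJ cores and 1 TEAD core. A match to so short a core is a description of these letters and not of a binding site. The KL window is 81.3% G and C, and the ABI3BP window 46.3%.

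ABI3BP (chr3:100749156-100993421) encodes a matrix protein first found by its binding to the SH3 domain of ABI3. Its log2 levels were 6.82, 6.85 and 6.90 on N1 erlotinib arrays, 5.52, 5.55 and 5.60 on N3 erlotinib arrays and 5.68, 5.69 and 5.74 on NTC erlotinib arrays. In DMSO they were 4.89, 4.98 and 5.00 with N1, 4.59, 4.63 and 4.69 with N3, and 4.62, 4.65 and 4.73 with NTC. Every erlotinib array was above every DMSO array, the N1 erlotinib arrays stood far above all others, and N3 DMSO and NTC DMSO were the only neighbors in the order of the 6 means whose arrays overlapped. The group means spanned 2.22 on the log2 scale, the widest span of the 8 genes. Erlotinib minus DMSO was 1.90 in N1 cells (3.73-fold) and 1.04 in NTC cells (2.05-fold, standard error 0.04 for each).

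With N3 siRNA, ABI3BP still rose with erlotinib, by 0.92 ± 0.04 (standard error, 1.89-fold, adjusted p = 1.39e-11 from limma). It was the member with the largest difference in that comparison. Without erlotinib, ABI3BP was higher in N1 than in N3 cells by 0.32 ± 0.04 (standard error, adjusted p = 6.71e-05 from limma). N1 DMSO minus NTC DMSO was 0.29, also without overlap of arrays, against 1.15 for the same siRNAs in erlotinib. In DMSO the ABI3BP levels were near the array median, with 2 of 3 N1 arrays above it, 0 of 3 N3 arrays and 0 of 3 NTC arrays.

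TINAGL1 (chr1:31576515-31587686) encodes a matricellular glycoprotein related to the cathepsin proteases but without their activity. Its levels were 8.09, 8.16 and 8.25 on N1 erlotinib arrays, 7.32, 7.35 and 7.43 on N3 erlotinib arrays and 7.88, 7.89 and 7.94 on NTC erlotinib arrays. In DMSO the levels were 7.50, 7.60 and 7.61 with N1, 7.39, 7.41 and 7.43 with N3, and 7.41, 7.41 and 7.55 with NTC. The N1 erlotinib and NTC erlotinib arrays stood above all others, and the 4 other groups overlapped from neighbor to neighbor with N3 erlotinib the lowest. N3 erlotinib minus N3 DMSO was -0.04 ± 0.05 (standard error, adjusted p = 0.520 from limma), against 0.60 in N1 cells and 0.45 in NTC cells. In DMSO, TINAGL1 was higher in N1 than in N3 cells by 0.16 ± 0.05 (standard error, adjusted p = 0.0390 from limma). That call is a narrow one: the adjusted p was 0.0591 without the filter on low values, 0.0526 with the compared arrays alone, and 0.0738 with the replicate number as a block over the 15 arrays numbered 1 to 3. It was 0.103 without N1 DMSO array 1, 0.129 without N1 DMSO array 3, and 0.0718, 0.0952 and 0.121 without N3 DMSO array 1, 2 and 3.

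NPNT (chr4:105895471-105971671) encodes nephronectin, a basement membrane ligand of integrin α8β1 known from kidney development in the mouse. Its levels were 8.77, 8.83 and 8.86 on N1 erlotinib arrays, 8.06, 8.12 and 8.15 on N3 erlotinib arrays and 8.56, 8.63 and 8.65 on NTC erlotinib arrays. In DMSO they were 8.22, 8.38 and 8.39 with N1, 8.44, 8.44 and 8.47 with N3, and 8.13, 8.20 and 8.22 with NTC. N3 cells had the highest NPNT of the DMSO groups and the lowest of the erlotinib groups, and on neither side did N3 arrays overlap those of NTC cells. NPNT was the only member called lower with erlotinib in N3 cells, by 0.34 on the log2 scale (standard error 0.05, adjusted p = 1.16e-05 from limma). Erlotinib minus DMSO was 0.49 in N1 cells and 0.43 in NTC cells. N1 DMSO minus N3 DMSO was -0.12 ± 0.05 (standard error, adjusted p = 0.105 from limma), although the arrays of both groups did not overlap.

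CST6 (chr11:66012008-66013505) encodes cystatin E/M, a secreted inhibitor of legumain and of cathepsins L and V. Its levels were 7.95, 8.0 and 8.08 on N1 erlotinib arrays, 7.04, 7.08 and 7.12 on N3 erlotinib arrays and 7.62, 7.67 and 7.70 on NTC erlotinib arrays. With DMSO they were 7.49, 7.53 and 7.53 in N1 cells, 7.05, 7.15 and 7.16 in N3 cells, and 7.32, 7.40 and 7.50 in NTC cells. Both N3 groups lay below every array of the other groups and overlapped each other. CST6 thus differed by siRNA under both treatments, and N3 erlotinib minus N3 DMSO was -0.04 ± 0.05 (standard error, adjusted p = 0.546 from limma). In DMSO, CST6 was higher in N1 than in N3 cells by 0.40 ± 0.05 (standard error, 1.32-fold, adjusted p = 2.58e-05 from limma), the largest difference among the 8 genes in that comparison. N3 DMSO minus NTC DMSO was -0.29 and N1 DMSO minus NTC DMSO was 0.11, and only N3 arrays were separate from those of NTC.

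SCNN1B (chr16:23278231-23381294) encodes the β subunit of the epithelial sodium channel ENaC, which absorbs sodium and with it fluid in airways and alveoli. Its levels were 7.16, 7.35 and 7.48 on N1 erlotinib arrays, 6.50, 6.53 and 6.57 on N3 erlotinib arrays and 7.03, 7.07 and 7.16 on NTC erlotinib arrays. In DMSO the values were 6.02, 6.08 and 6.10 with N1, 6.26, 6.32 and 6.40 with N3, and 6.23, 6.25 and 6.30 with NTC. All erlotinib arrays were above all DMSO arrays, and N1 was the highest group in erlotinib but the lowest in DMSO. SCNN1B was the only member whose N1 erlotinib and NTC erlotinib arrays overlapped, with 7.16 as the lowest value of N1 and the highest of NTC.

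In N3 cells SCNN1B rose with erlotinib by 0.21 ± 0.06 (standard error, 1.15-fold, adjusted p = 0.0114 from limma), against 1.26 in N1 cells and 0.83 in NTC cells. Without N3 DMSO array 3 the difference was 0.17 and the adjusted p was 0.0556. In DMSO, SCNN1B was lower in N1 than in N3 cells, with a difference of -0.26 ± 0.06 (standard error, adjusted p = 0.00870 from limma). Without N3 DMSO array 2 it was -0.22, with an adjusted p of 0.0503.

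KL (chr13:33016243-33066143) encodes klotho, the co-receptor that lets FGF receptors bind the hormone FGF23. Its levels were 5.88, 5.98 and 6.22 on N1 erlotinib arrays, 4.96, 4.98 and 5.11 on N3 erlotinib arrays and 5.49, 5.69 and 5.86 on NTC erlotinib arrays. In DMSO they were 4.59, 4.64 and 4.77 with N1, 4.87, 4.97 and 4.97 with N3, and 4.71, 4.84 and 4.90 with NTC. The N1 erlotinib and NTC erlotinib arrays were separate from each other and from the rest, while the 3 DMSO groups and N3 erlotinib overlapped from neighbor to neighbor. N3 erlotinib minus N3 DMSO was 0.08 ± 0.09 (standard error, adjusted p = 0.510 from limma), against 1.36 in N1 cells and 0.86 in NTC cells. N1 DMSO minus N3 DMSO was -0.27 ± 0.09 (standard error, limma adjusted p = 0.0531). The arrays of these groups did not overlap. Its adjusted p was 0.0168 with the compared arrays alone. It was between 0.0313 and 0.151 as each array was left out, and 0.0313 without N1 erlotinib array 1, 0.0424 without N1 erlotinib array 3, 0.0325 without NTC erlotinib array 1 and 0.0331 without NTC erlotinib array 2.

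GATA3 (chr10:8045333-8075198) encodes a zinc finger transcription factor known from T cells and from luminal cells of the breast. Its levels were 7.98, 7.99 and 8.0 on N1 erlotinib arrays, 7.16, 7.16 and 7.28 on N3 erlotinib arrays and 7.66, 7.74 and 7.80 on NTC erlotinib arrays. In DMSO they were 7.13, 7.14 and 7.17 with N1, 6.75, 6.82 and 6.89 with N3, and 6.92, 6.92 and 7.08 with NTC. Of the neighbors in this order only N1 DMSO and N3 erlotinib overlapped, so within each treatment N1 was above NTC and NTC above N3 on every array. GATA3 rose with erlotinib in N3 cells by 0.38 ± 0.05 (standard error, 1.30-fold, adjusted p = 9.11e-06 from limma), against 0.84 in N1 cells and 0.76 in NTC cells. Without erlotinib it was higher in N1 than in N3 cells by 0.33 ± 0.05 (standard error, adjusted p = 0.000311 from limma). GATA3-AS1, the antisense gene beside GATA3, has a feature of its own that lay below the noise limit in all groups, with group means of 4.62 to 4.82.

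TCIM encodes a small protein that binds Chibby and so frees β-catenin. Its levels were 6.06, 6.12 and 6.20 on N1 erlotinib arrays, 4.85, 4.95 and 5.07 on N3 erlotinib arrays and 5.49, 5.64 and 5.70 on NTC erlotinib arrays. In DMSO the levels were 4.48, 4.89 and 4.89 with N1, 4.84, 4.94 and 4.95 with N3, and 4.72, 4.86 and 4.99 with NTC. As for KL, the N1 erlotinib arrays were the highest, the NTC erlotinib arrays were next, and the other 4 groups overlapped. N3 erlotinib minus N3 DMSO was 0.05 ± 0.10 (standard error, adjusted p = 0.732 from limma), against 1.37 in N1 cells and 0.75 in NTC cells. N1 DMSO minus N3 DMSO was -0.16 ± 0.10 (standard error, adjusted p = 0.334 from limma). N1 DMSO array 1, at 4.48, was the lowest array for TCIM, and without it N1 DMSO minus NTC DMSO was 0.03 in place of -0.10. TCIM, KL and ABI3BP were near the limit of the filter, since they lay above the array median on 12, 11 and 11 of 18 arrays and the other 5 genes on all 18. For TCIM and KL all 6 arrays of N1 erlotinib and NTC erlotinib were above it, and for ABI3BP all 9 erlotinib arrays.

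**Figure D2:**
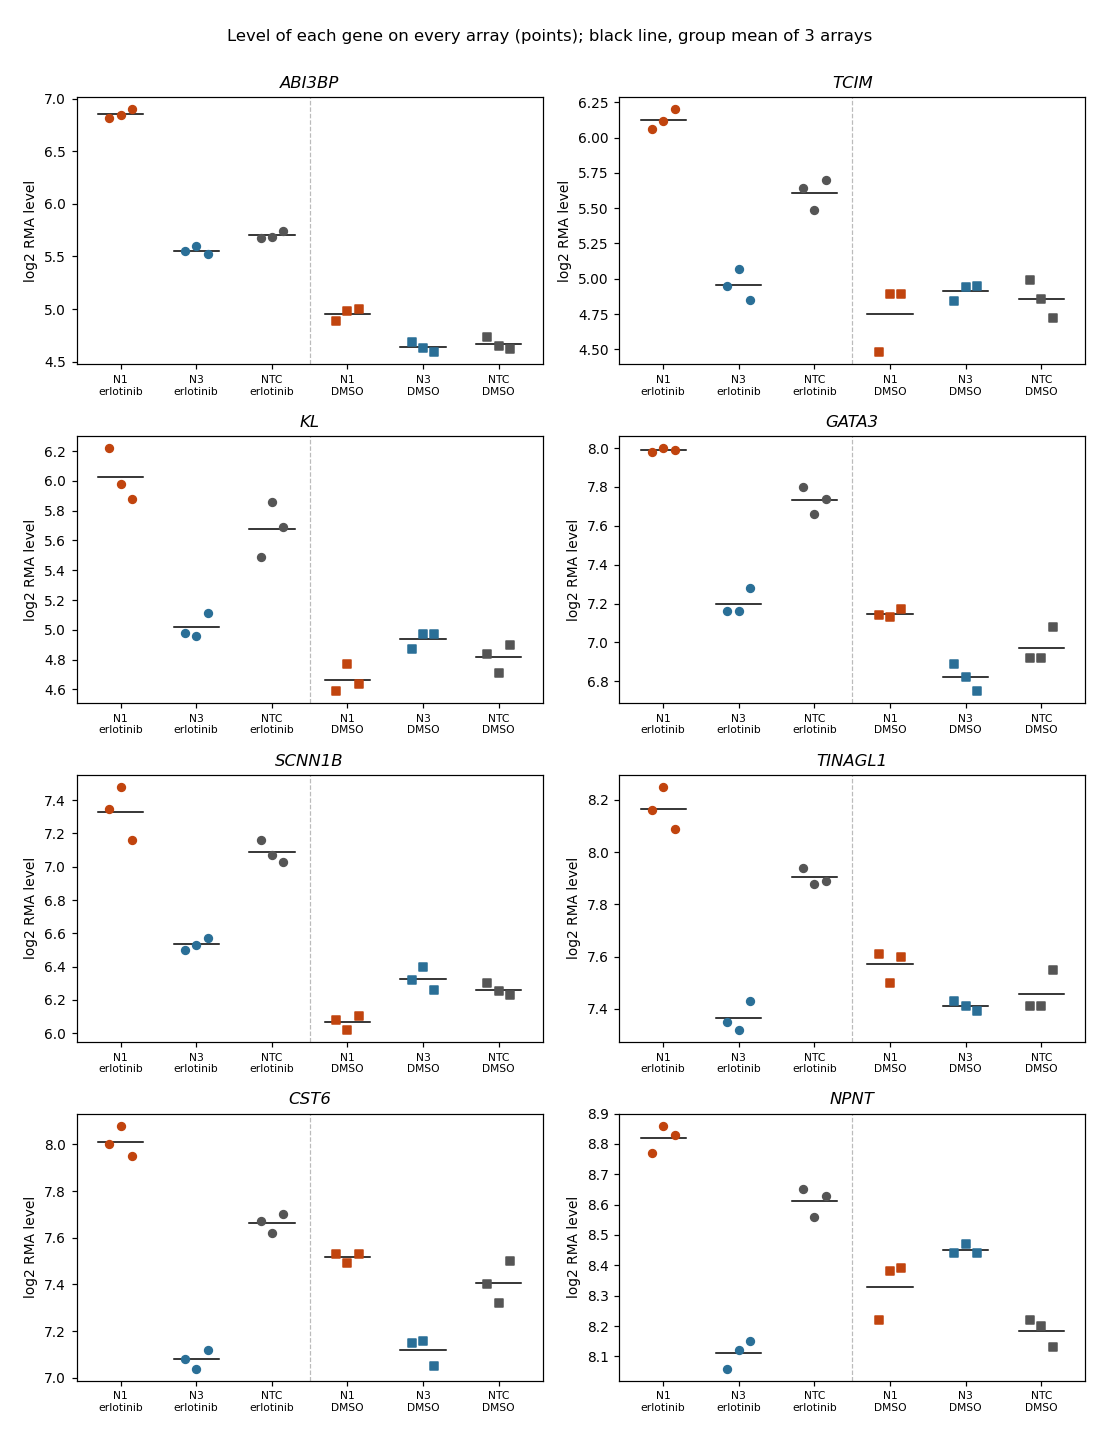
Each panel shows 1 gene, with the log2 RMA level on the vertical axis, a point for every array and a line at the mean of the 3 arrays of a group; vertical axes differ between panels and do not start at 0. N1 erlotinib is the highest group for all 8 genes, and N3 erlotinib lies below NTC erlotinib for all 8.

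Across the 8 genes, the effect of erlotinib was largest in N1 cells and smallest in N3 cells. That order is in part set by the choice, which required higher levels in N1 erlotinib than in NTC erlotinib cells. The N3 erlotinib levels may have entered the choice too, so the order is no separate result. In N1 cells all 8 were higher in erlotinib on every array, with a median difference of 1.05 against 0.08 over all genes, and 32.9% of all genes were higher without overlap in that comparison. It shares the N1 erlotinib arrays with the choice and is a description. In N3 cells, 3 of 8 genes were called higher (ABI3BP, GATA3, SCNN1B), and 24.9% of all genes tested were called higher at the same adjusted p under 0.05. The N3 erlotinib arrays of this comparison may have entered the choice, so its test is not independent of it. NPNT, 1 of the 8, was called lower, beside 27.7% of all genes. TCIM, KL, TINAGL1 and CST6 passed in neither direction. The median of the 8 differences was 0.06 and that of all genes 0.01. With the stricter thresholds of the Methods, a fold change of at least 2 together with an unadjusted p under 5e-04, none of the 8 genes was called in N3 cells, beside 1.32% of all genes called higher and 2.85% lower. ABI3BP had the largest fold change among the 8 at 1.89.

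The erlotinib difference in N3 cells minus that in NTC cells was -0.12 for ABI3BP, -0.30 for CST6, -0.38 for GATA3, -0.49 for TINAGL1 and -0.62 for SCNN1B. It was -0.71 for TCIM, -0.77 for NPNT and -0.78 for KL. These gaps share the NTC arrays with the choice, and their size was not tested.

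**Figure D3:**
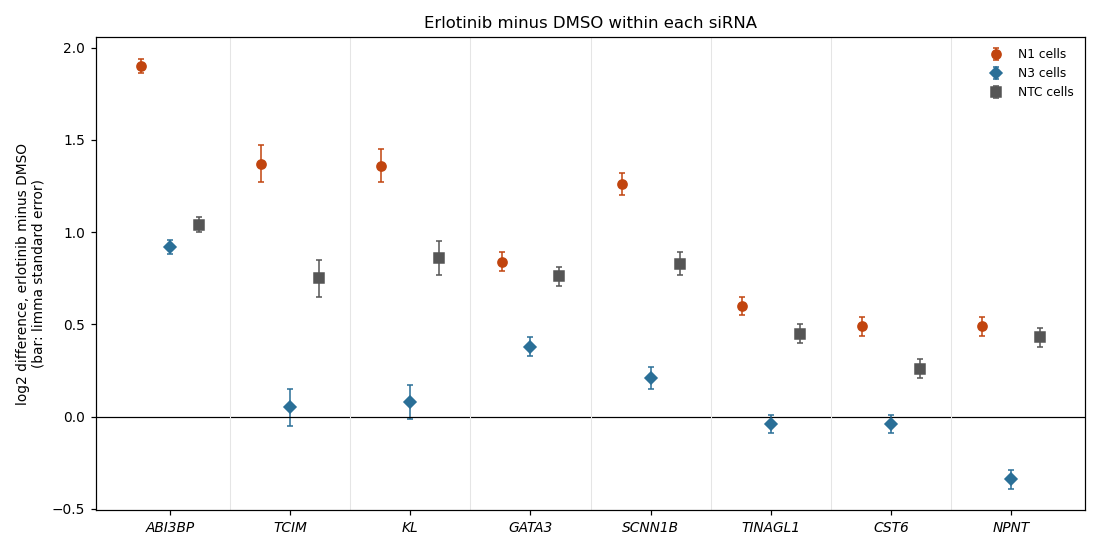
The vertical axis gives erlotinib minus DMSO as a log2 difference for each of the 8 genes, in N1, N3 and NTC cells, with limma standard errors as bars. N3 points lie lowest for every gene, near 0 for TCIM, KL, TINAGL1 and CST6 and below 0 for NPNT at -0.34.

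Against control siRNA, the difference with each Notch siRNA had one sign for all 8 genes in erlotinib, and a sign that varied between genes in DMSO. With N1 siRNA the sign in erlotinib was fixed by the choice of the genes and is no result. N3 erlotinib minus NTC erlotinib was below 0 for all 8 genes and without overlap of arrays, from -0.15 for ABI3BP to -0.66 for KL. In that comparison 18.7% of all genes were lower and 15.1% higher without overlap, and the medians were -0.54 for the 8 genes and -0.01 for all genes. As the 8 genes are all among the 51 named above, this direction may be fixed by the choice and is no separate result. In DMSO, 2 of 8 genes were higher in N1 than in NTC cells without overlap (ABI3BP by 0.29 and GATA3 by 0.17), beside 11.0% of all genes. SCNN1B was lower without overlap (-0.19), beside 14.9% of all genes. The other 5 overlapped, with differences from -0.15 for KL to 0.15 for NPNT. In these groups same-numbered arrays deviated together, so the differences were also read within the 3 pairs. ABI3BP, GATA3, TINAGL1 and CST6 were higher in N1 cells in all 3 pairs, as were 22.8% of all genes. TINAGL1 differed by 0.20, 0.09 and 0.05 and CST6 by 0.13, 0.17 and 0.03 in pairs 1, 2 and 3. SCNN1B was lower in all 3 pairs (-0.22, -0.23 and -0.13), as were 36.8% of all genes, and TCIM, KL and NPNT did not have one sign in all pairs.

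N3 DMSO arrays were above NTC DMSO arrays without overlap for NPNT alone (0.27), beside 13.7% of all genes. GATA3 (-0.15) and CST6 (-0.29) were lower without overlap, beside 14.1% of all genes. ABI3BP, TCIM, KL, SCNN1B and TINAGL1 overlapped, with differences from -0.05 for TINAGL1 to 0.12 for KL. All of these comparisons share NTC arrays with the choice and were not tested.

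**Figure D4:**
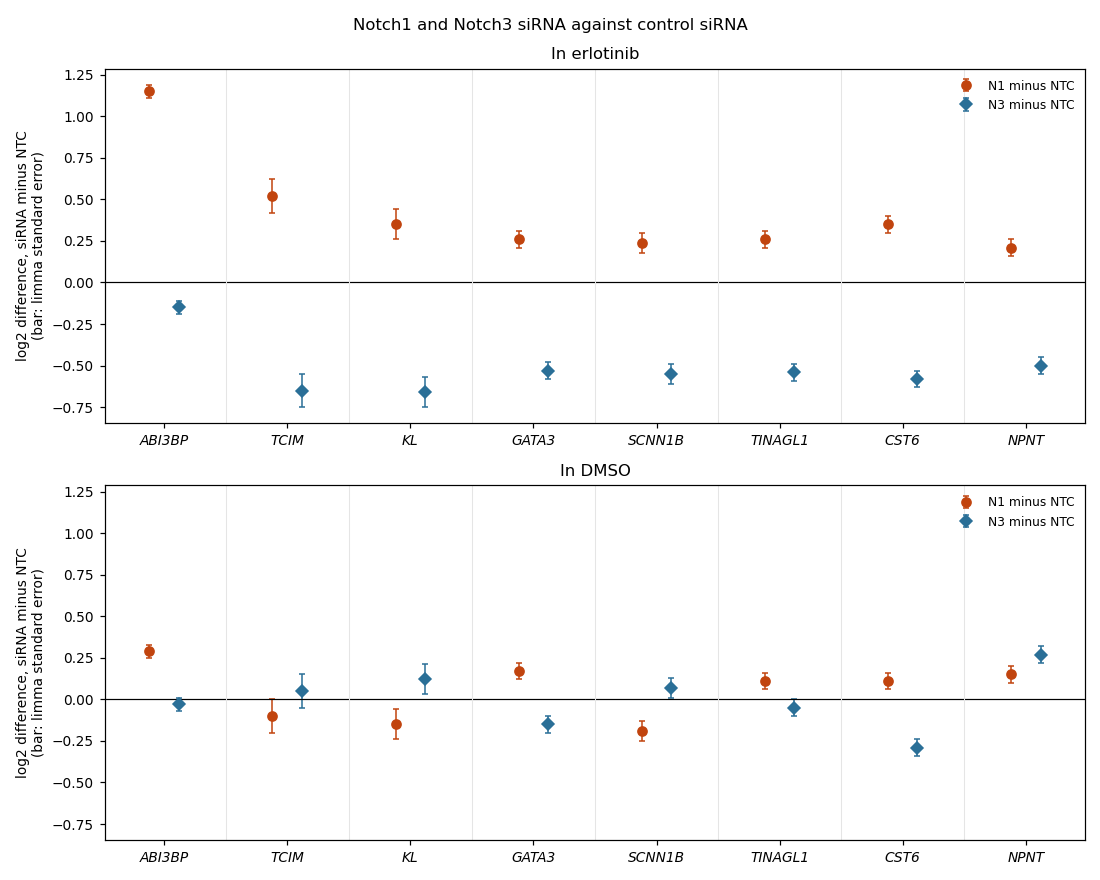
The 2 panels give N1 minus NTC and N3 minus NTC as log2 differences for each of the 8 genes, in erlotinib (upper) and in DMSO (lower), on the same vertical scale and with limma standard errors as bars. In erlotinib all N1 points are above 0, as the choice of the genes required, and all N3 points are below 0. In DMSO both siRNAs have points on either side of 0, between -0.29 and 0.29.

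N1 DMSO against N3 DMSO used none of the arrays of the 2 comparisons that chose the genes, and was tested. Called higher in N1 cells were 4 of 8 genes, ABI3BP, GATA3, TINAGL1 and CST6, beside 7.48% of all genes tested. The call of TINAGL1 was lost under several alternatives, as given for that gene above. This comparison alone does not tell which of the 2 siRNAs moved a gene. SCNN1B was called lower, beside 9.91% of all genes. KL, TCIM and NPNT had differences of -0.27, -0.16 and -0.12 that did not pass. The median over the 8 genes was 0.02 and over all genes -0.01, with a range of -0.27 to 0.40. At the thresholds of the Methods none of the 8 was called, and of all genes 0.0306% were called higher and 0.129% lower.

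The N1 minus NTC difference was larger in erlotinib than in DMSO by 0.86 for ABI3BP, 0.62 for TCIM, 0.50 for KL and 0.44 for SCNN1B. For CST6, TINAGL1, GATA3 and NPNT the gap was 0.24, 0.15, 0.08 and 0.06. GATA3 and NPNT thus had nearly the same N1 difference under both treatments, while KL and SCNN1B had one above 0 in erlotinib and below 0 in DMSO. TCIM did so only with N1 DMSO array 1, since its DMSO difference of -0.10 became 0.03 without that array. These values share arrays with the choice and have no test.

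The profiles of the 8 genes over the 6 groups were compared after centering each gene on its mean of the 6 group means, by the root mean square of the log2 differences. KL and SCNN1B were the closest pair of the 8 at 0.06, followed by TCIM and KL at 0.07, with TCIM and SCNN1B at 0.12. TINAGL1 was 0.10 from CST6 and 0.12 from NPNT, and CST6 and NPNT were 0.19 apart. ABI3BP lay 0.37 to 0.63 from the other 7. A small distance is in part a matter of the small span of a gene.

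Among all genes tested, the profile nearest to KL was that of SCNN1B, and nearest to SCNN1B those of KL and SCNN1G (0.08). SCNN1G encodes the γ subunit of ENaC, which works in one channel with SCNN1B, and was not one of the 8 genes. It is one of the 384 genes higher in both comparisons of the choice (0.720 and 0.317), so its closeness is in part built in. Its levels were 6.27, 6.43 and 6.45 on N1 erlotinib arrays, 5.60, 5.67 and 5.72 on N3 erlotinib arrays and 6.05, 6.07 and 6.08 on NTC erlotinib arrays. In DMSO they were 5.10, 5.29 and 5.36 with N1, 5.45, 5.54 and 5.62 with N3, and 5.19, 5.36 and 5.49 with NTC. SCNN1G was thus, as SCNN1B, highest in N1 erlotinib and lowest on average in N1 DMSO. Unlike for SCNN1B, N3 erlotinib minus N3 DMSO did not pass for SCNN1G (0.13 ± 0.08, standard error, adjusted p = 0.187 from limma). In DMSO, SCNN1G was lower in N1 than in N3 cells (-0.29 ± 0.08, standard error, adjusted p = 0.0150 from limma).

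ABI3BP was nearest to PGBD5 at 0.23 and to KCNK15, a potassium channel gene, at 0.28. GATA3 was nearest to ANKRD34B (0.08) and TUFT1 (0.09). TINAGL1 was nearest to CREB3L2, which encodes a membrane-bound transcription factor (0.06), and to GFRA1, a GDNF receptor (0.08). For CST6, TINAGL1 at 0.10 was followed by NOTCH3 itself at 0.11, which averaged 7.22 ± 0.09 in N1 erlotinib, 6.40 ± 0.12 in N3 erlotinib and 6.97 ± 0.06 in NTC erlotinib cells (SD, n = 3 each). In DMSO, NOTCH3 averaged 6.87 ± 0.07 with N1, 6.40 ± 0.06 with N3 and 6.97 ± 0.05 with NTC. Its NTC mean was thus the same under both treatments, while that of CST6 was 7.41 in DMSO and 7.66 in erlotinib. NOTCH3 is the target of the N3 siRNA, so its low N3 means include the knockdown. NPNT was nearest to SLC27A2, a fatty acid transporter gene, and to RNF19B, a ubiquitin ligase gene, both at 0.11. PGBD5, KCNK15, TUFT1, GFRA1 and SLC27A2 are also among the 384 genes higher in both comparisons of the choice. Their closeness is thus in part built in. All distances are over 6 group means that share their arrays, and have no test.

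**Figure D5:**
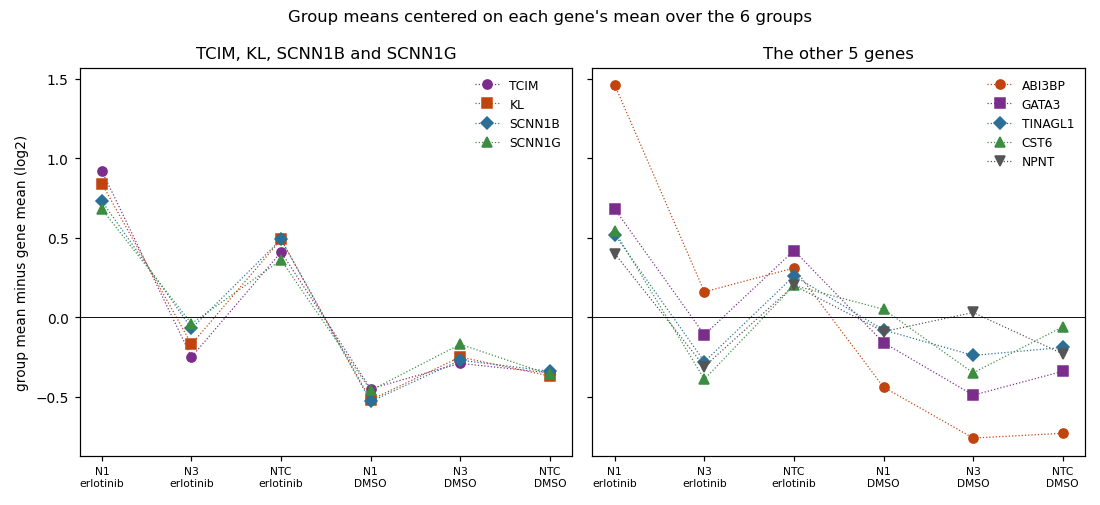
Group means of each gene, centered on the mean of its 6 groups (log2, vertical axis), for TCIM, KL, SCNN1B and SCNN1G on the left and for the other 5 genes on the right, with dotted lines only to guide the eye between groups. The 4 profiles on the left nearly coincide, with N1 lowest in DMSO, while ABI3BP on the right stands highest in N1 erlotinib.

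The genes that work with the 8 were read in both tested comparisons, N3 erlotinib against N3 DMSO and N1 DMSO against N3 DMSO, with the percentages of all genes given above as background. Of the ENaC subunits and regulators beside SCNN1B, 7 of 9 were tested, and with erlotinib in N3 cells 1 rose (NEDD4L, a ubiquitin ligase that removes ENaC from the membrane, by 0.14, adjusted p = 0.0162 from limma) and 3 fell (median 0.07). SCNN1A, the α subunit, fell by 0.47 (adjusted p = 1.04e-07), the opposite direction to SCNN1B, and ST14 and TMPRSS4, which encode membrane serine proteases, fell by 0.40 and 0.22 (adjusted p = 9.29e-07 and 0.00640, limma). Without drug, 3 of the 7 were lower in N1 than in N3 cells and none was called higher (median -0.07), namely SCNN1G, ST14 (-0.25, adjusted p = 0.000881) and PRSS8, the ENaC-activating protease prostasin (-0.53, adjusted p = 1.91e-05 from limma). Around KL, 5 of 8 FGF receptors, endocrine FGFs and the klotho relative KLB were tested. FGF19, an endocrine FGF, fell with erlotinib in N3 cells by 1.20 (adjusted p = 2.45e-08) and FGFR2 rose by 0.20 (adjusted p = 0.000410, limma), with a list median of -0.01. FGF19 was also lower in N1 than in N3 DMSO cells (-0.31, adjusted p = 0.0449 from limma), and no gene of the list was called higher (median 0.00). FGF23 and KLB did not pass the filter on low values.

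Of 7 GATA factors and cofactors tested of 8, only TRPS1, a GATA-type repressor, rose with erlotinib in N3 cells, by 0.49 (adjusted p = 3.01e-07), and only GATA6 was higher in N1 than in N3 DMSO cells, by 0.53 (adjusted p = 9.34e-06, limma). The medians of that list were 0.05 and 0.04. Of 11 epithelial transcription factors tested of 12, TFAP2C rose (0.11, adjusted p = 0.0457 from limma) and 6 fell with erlotinib in N3 cells (median -0.15), unlike GATA3. SOX2, a factor of basal and progenitor cells, fell by 0.75, FOXA2 by 0.41 and KLF5 by 0.36 (adjusted p = 1.59e-05, 1.43e-05 and 6.78e-07, limma). In DMSO, KLF5 was higher in N1 than in N3 cells (0.13) and 3 factors were lower (median -0.06), SOX2 at -0.43, the lung factor NKX2-1 at -0.28 and EHF at -0.20 (adjusted p = 0.0289, 0.0113, 5.80e-05 and 0.00360, limma).

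CST6 moved against most cystatins and cysteine proteases in DMSO, where 9 of the 13 tested of 14 were lower in N1 than in N3 cells and none was called higher (median -0.23). The salivary cystatin genes CST4 and CST2 had the largest differences, at -1.55 and -0.90 (adjusted p = 4.61e-09 and 4.78e-08, limma), and their sequences are so alike that they may share signal on the array. With erlotinib in N3 cells 5 of the 13 rose and 3 fell (median 0.03). CST5, or cystatin D, rose by 1.57 and CTSS by 0.98, while CTSV, whose protease is a target of cystatin E/M, fell by 0.77 (adjusted p = 2.04e-11, 2.34e-09 and 1.40e-08, limma).

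Of the nephronectin partners and basement membrane organizers, 7 of 11 were tested, and ITGA8, the α chain of the nephronectin receptor, did not pass the filter on low values. With erlotinib in N3 cells, where NPNT fell, 4 rose and 2 fell (median 0.16). FRAS1 and GRIP1, which help place basement membrane proteins, rose by 0.82 and 0.60, and NID1, or nidogen, fell by 0.73 (adjusted p = 3.50e-09, 7.87e-08 and 6.79e-08, limma). FRAS1 and ITGB1, the β chain of the receptor, were higher in N1 than in N3 DMSO cells by 0.27 and 0.26 (adjusted p = 0.00403 and 0.00116, limma), the 2 of 7 that passed (median 0.05). Of 14 secreted matrix glycoproteins tested of 16, 8 rose and 4 fell with erlotinib in N3 cells (median 0.17). LTBP1, which holds latent TGF-β in the matrix, rose by 2.08, while TNC and EFEMP1 fell by 1.17 each (adjusted p = 6.15e-15, 1.23e-12 and 7.07e-14, limma). In DMSO 4 were higher and 5 lower in N1 than in N3 cells (median -0.08), and fibronectin (FN1) and SPARC, at -1.35 and -0.66, had the largest differences (adjusted p = 1.84e-11 and 7.23e-09, limma).

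Of the β-catenin partners and targets, 11 of 14 were tested, and with erlotinib in N3 cells 2 rose and 6 fell (median -0.15) while TCIM did not pass. LGR5, a target of β-catenin and a receptor for R-spondins, rose by 4.80, CTNNB1, which encodes β-catenin, fell by 0.81, and TCF7L1 rose by 0.47 (adjusted p = 7.92e-16, 2.71e-11 and 1.10e-06, limma). CBY1, which encodes the TCIM partner Chibby, fell by 0.20 (adjusted p = 0.00406 from limma). TCF7L2, RNF43, ZNRF3 and DKK1 also fell (-0.36, -0.37, -0.15 and -0.18), and NKD1, SP5 and MYC did not pass. In DMSO 3 were higher and 2 lower in N1 than in N3 cells (median 0.03), with LGR5 at 0.88 and the Wnt antagonist DKK1 at 0.44 (adjusted p = 2.54e-05 and 0.000153, limma). Of 9 Notch receptors and targets tested of 10, none rose and 3 fell with erlotinib in N3 cells (median -0.11), with HES1, a direct Notch target, down by 1.05 (adjusted p = 4.39e-10), the ligand gene JAG1 by 0.27 (adjusted p = 0.000581) and NOTCH1 by 0.11 (adjusted p = 0.0435, limma). In DMSO, NOTCH3 and JAG1 were higher in N1 than in N3 cells, by 0.46 and 0.27, and NOTCH1 was lower, at -0.20 (adjusted p = 4.23e-05, 0.00306 and 0.00433, limma), with a list median of 0.04.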

How the data were processed

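Affymetrix Expression Console was used by the authors to quantify the arrays, and the deposited log2 values are RMA values, corrected for background, normalized across arrays and summarized per feature. RMA's version, the annotation build and the limit of the authors' noise filter were not given in the sources used here. All 18 arrays were grouped by their labels. Of 70523 features, 23781 name 1 gene, 1543 several and 45199 none in the platform table. Features above the array's 50th percentile on 3 or more arrays were kept (37493), and the feature with the highest mean was taken for each gene (16336 genes).

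In R 4.3.3, limma 3.58.1 (lmFit, contrasts.fit, eBayes) was fitted to the 6 group means of all arrays. Only N3 erlotinib against N3 DMSO and N1 DMSO against N3 DMSO were tested for the 8 genes. The 8 genes, the 9 lists of related genes (102 genes, 84 tested) and the rule for naming genes were chosen with earlier results of these data known. Named were the 8 genes, both siRNA targets, the 2 nearest profiles of each gene, the first 5 genes of the choice, and from each list up to 3 called genes with the largest change in the first tested comparison and up to 2 in the second, without overlap of arrays. Genes named beyond this rule were chosen after their values were seen. Same-numbered arrays did not deviate together between N1 DMSO and N3 DMSO (correlations of deviations from the group means -0.126, 0.171 and -0.289), so that test had no block. They did between N1 DMSO and NTC DMSO (0.687, 0.243 and 0.493), a comparison without a test, whose differences within pairs are given too. The procedure was tested on simulated data. Alternatives changed the filter, the features, the arrays in the model, the normalization, the variance model, the threshold and the block, and left out each array in turn. The number of arrays limits the precision.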

Additional observations from a re-analysis of the deposited data

Results flagged for a closer look

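Among the 8 genes, 3 had a pair of effects with opposite signs in which each array of the first-named group lay on that side of the mean of the other group. The arrays of the 2 groups themselves overlapped for KL in DMSO, with N1 and with N3 against NTC, and for SCNN1B with N1 against NTC in erlotinib. None of these differences was tested, since they share arrays with the choice of the genes. Each is the first effect minus the second, on the log2 scale.

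For KL, N1 minus NTC was 0.35 in erlotinib and -0.15 in DMSO, a difference of 0.50. For SCNN1B it was 0.24 in erlotinib and -0.19 in DMSO, a difference of 0.44. N3 minus NTC for KL was -0.66 in erlotinib and 0.12 in DMSO, a difference of -0.78. For NPNT it was -0.50 in erlotinib and 0.27 in DMSO, a difference of -0.77. Erlotinib minus DMSO for NPNT was -0.34 in N3 cells and 0.43 in NTC cells, a difference of -0.77.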

How the results depend on the processing

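No difference of the 8 genes that passed its test changed sign under any alternative. At the thresholds of the Methods the numbers of the 8 genes called were 0 higher and 0 lower in N3 erlotinib against N3 DMSO, and 0 higher and 0 lower in N1 DMSO against N3 DMSO. In N1 DMSO against N3 DMSO, 2 genes were called lower with quantile normalization (NPNT was added at -0.13, adjusted p = 0.0327 from limma) and 2 with the compared arrays alone (KL was added). As each array was left out in turn, between 0 and 2 genes were lower in that comparison and 3 to 4 higher, and in N3 erlotinib against N3 DMSO 2 to 3 were higher and 1 lower. The count of 0 came without N3 DMSO array 2, and that of 2 higher without N3 DMSO array 3. For TINAGL1 the adjusted p was 0.0819 with all features in the test. The replicate block over the 15 arrays numbered 1 to 3 gave TINAGL1 0.16 (adjusted p = 0.0738 from limma) and changed no other call of the 8 genes. With the block, 2427 of all genes were called, against 2612 on the same arrays without it (a setting added after the data were seen) and 2841 on all 18 arrays. No paired analysis was possible because the N3 erlotinib arrays share no replicate number with N3 DMSO. ABI3BP in N1 cells, erlotinib minus DMSO, was 1.82 with quantile normalization. With the limit at the 75th percentile, 6 of the 8 genes were tested. TCIM, KL and ABI3BP lie near the array medians in DMSO, where small differences are least certain.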
